A study of Homo sapiens with 2 samples.

Results

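The regions described here are the SOX4 peaks that lie near the ends of chromosomes in LN229 cells, an established human glioblastoma cell line. A peak was taken when its midpoint fell within 3 Mb of either end of 1 of 19 chromosomes in the genome build hg19. Chromosomes 7, 9, 20, X and Y were left out. The rule uses position alone and no score. It found 218 of the 4201 peaks in the list (5.19%, exact 95% interval 4.54 to 5.90%), or 8.35% of the 2612 peaks on these 19 chromosomes (7.31 to 9.47%). The end of the long arm of chromosome 4, written 4q below, held 102 of the 218 and is treated apart from the other ends, which held 116.

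The study mapped SOX4 with chromatin immunoprecipitation and sequencing, which recovers and reads the DNA bound to a tagged protein. LN229 cells were transfected with a plasmid for SOX4 carrying a Flag tag and an HA tag, and the negative control cells with a plasmid for GFP carrying the same 2 tags. Both were precipitated with an anti-Flag antibody, and each condition had 1 library. The title and sample labels name glioblastoma cells, whereas the design text calls them prostate cells. SOX4 was overexpressed, so its amount is not that of unmodified cells. Only the peak list of the SOX4 library was used here. No data of the GFP library were analysed, and the number of reads behind a peak is unknown. Whether the GFP library served as the control in peak calling is not stated. No comparison of SOX4 with GFP was made here beyond any that the deposited peaks already hold.

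SOX4 is a transcription factor of the SOX family, whose HMG box binds the minor groove of DNA and bends it. It is known for roles in development and in several tumours, glioblastoma among them. The DNA just inside the telomeres, the subtelomere, is a patchwork of blocks copied between chromosome ends, with tandem repeats and young gene families. Short reads from such blocks can match several places in the genome. The short arms of chromosomes 13, 14, 15, 21 and 22 carry ribosomal and satellite DNA that hg19 leaves unsequenced. These 5 ends could hold no peak and held 0, which leaves 33 ends with sequence.

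Peaks were unevenly spread over the 33 ends. At least 1 peak was found at 29 of them, and none at 6q, 11q, 15q and 19p. The end 4q held 102 peaks, 1p held 21, 4p held 16 and 17q held 13, which together made 152 of the 218 (69.7%, exact 95% interval 63.2 to 75.7%). Between 4 and 8 peaks were found at 5 ends, with 8 at 1q, 6 each at 3q and 10q, 5 at 18q and 4 at 8q. The remaining 20 ends held 1 to 3 peaks each, 37 in all. Over the 32 ends other than 4q the median was 2 peaks.

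**Figure D1:**
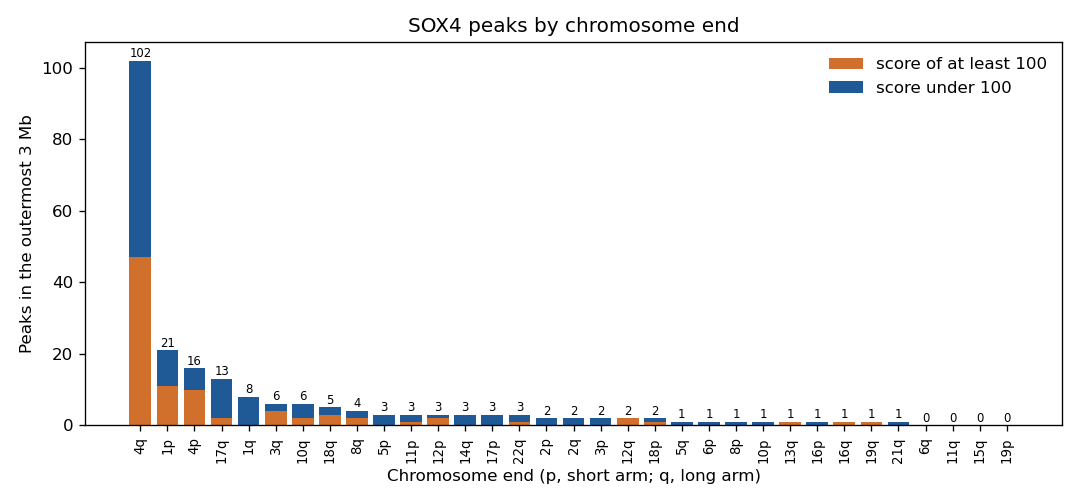
Number of peaks in the outermost 3 Mb (vertical axis) at each of the 33 sequenced chromosome ends (horizontal axis), divided into peaks with a deposited score of at least 100 and under 100, with the total above each bar. The 102 peaks at 4q exceed the 21 at 1p, the next fullest end, and 4 ends have none.

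The other 32 ends held more peaks than the stretch just inside them. Their 116 peaks in 96 Mb came to 1.21 per Mb. The bands from 3 to 6 Mb on the same arms held 37 peaks in the same length, or 0.39 per Mb. The density at the ends was thus 3.14-fold that of the inner bands (95% interval 2.15 to 4.67). The window held more peaks than its inner band at 24 of the 32 ends, as many at 8, of which 4 had none in either, and fewer at 0. The intervals cover counting error in 1 library only and treat peaks as independent, which neighbours are not. No replicate was available to test the difference.

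Against the rest of the same chromosomes, the comparison depended on how dense runs of peaks were handled. A run is a chain of at least 10 peaks with gaps of at most 100 kb. Runs held 60.9% of all peaks of the list, 22.4% of the 116 peaks at the other ends (exact 95% interval 15.2 to 31.1%) and 66.2% of the 2394 peaks elsewhere on the 19 chromosomes. With runs included, the ends had 1.21 peaks per Mb and the rest 0.996, a fold of 1.21 whose interval (0.998 to 1.46) takes in 1. With runs left out, the ends had 0.94 per Mb from 90 peaks and the rest 0.34 per Mb, a fold of 2.79 (2.22 to 3.47). Any unsequenced gaps were counted in the lengths of the end windows, the inner bands and the rest, which lowers each density. The sizes of these gaps were not measured. Outside runs, the ends were denser than the rest on 16 of 19 chromosomes. The exceptions were chromosomes 15, 19 and 21, with 0, 1 and 1 peaks at their ends. Some of the 16 also rested on few end peaks, with 1 each on chromosomes 6 and 13 and 2 each on 4 and 16. Chromosome 4 was counted without its 4q end.

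Density was highest in the outermost 1 Mb. In steps of 500 kb from the end, the 32 ends held 37, 28, 12, 10, 10 and 19 peaks. Of the outermost 37, the run at 4p gave 14, and of the 19 in the innermost step the run at 1p gave 12. Without runs the counts were 23, 28, 12, 10, 10 and 7. The outermost 500 kb had 2.31 peaks per Mb against 0.99 per Mb from 500 kb to 3 Mb, a fold of 2.34 (1.54 to 3.50). Without 4p that fold was 1.49 and its interval (0.89 to 2.41) took in 1. Only 13 of the 32 ends had a peak in the outermost 500 kb. The peak closest to an end was at 5p, chr5:10337-11171, with a score of 74.1 and its midpoint 10.8 kb from the end.

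**Figure D2:**
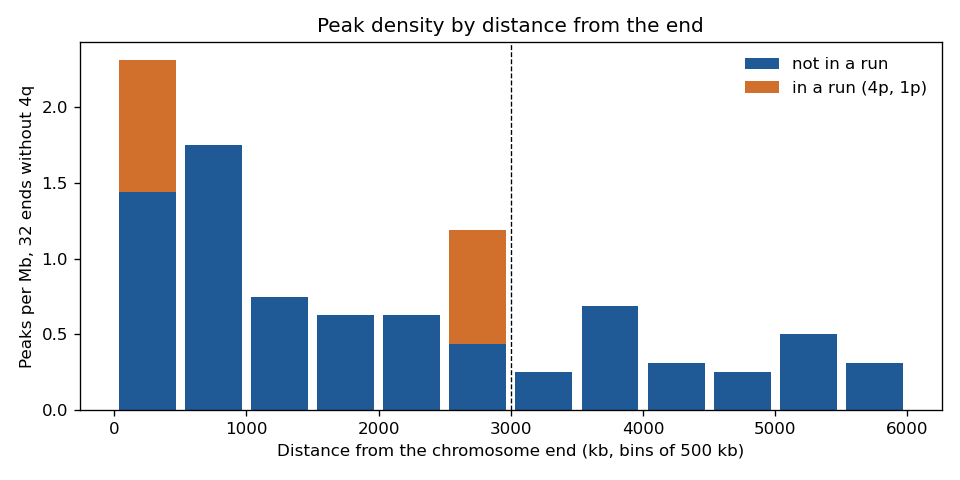
Peaks per Mb over the 32 sequenced ends other than 4q (vertical axis) in bins of 500 kb from the chromosome end (horizontal axis), with peaks in the runs at 4p and 1p stacked on those outside runs; the dashed line marks the 3 Mb limit. Outside runs, density is 1.44 and 1.75 per Mb in the outermost bins and 0.75 or less in every bin further in.

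The 3 Mb limit fell in a stretch with no peaks at any of the ends. The last peak inside it was chr1:246329341-246329897, a 557 bp peak on 1q with a score of 51.7, 2921 kb from the end. The next one out was chr22:48149875-48150530 on 22q, 656 bp wide with a score of 56.5, at 3155 kb.

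The 4q end was the fullest of all the ends. Its 102 peaks lay between 123 and 999 kb from the end, with none nearer the telomere and none from 1 to 3 Mb. How much of the outermost 123 kb is sequenced in hg19 was not checked. The lack of peaks there is therefore not read as a result. The inner band of the same arm held 2 peaks, with scores of 56.7 and 52.5. In the RefSeq table of GRCh38, which was used for gene names and their order only, the outermost named protein-coding genes of 4q are DUX4, FRG2 and FRG1. DUX4 is a transcription factor encoded within a repeated array and active in the early embryo, and the FRG genes are named for the muscular dystrophy mapped to this end. No peak was assigned to a gene, because no hg19 annotation was used.

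Peaks at 4q fell into groups with empty stretches between them when divided at gaps over 20 kb. The innermost group was a single peak, chr4:190153987-190156939, 2953 bp wide with a score of 3100. This is the highest value at 4q, and all other peaks there scored between 50.9 and 628. A pair at chr4:190197611-190201392 followed 40.7 kb further out, with scores of 240 and 157. After an empty 276 kb came the main group, chr4:190477642-190680537, with 57 peaks in 203 kb and a median score of 81.4. One lone peak of score 117, chr4:190767001-190767972, lay between this group and the next.

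The second large group at 4q, chr4:190796283-190943984, held 36 peaks in 148 kb with a median score of 117. Of these 36, 21 scored 100 or more (58.3%), as did 22 of the 57 in the main group (38.6%). The share was 39.7% in the list and 56.4% in the runs that held none of the end peaks. The 2 groups differed little in the share of their span that peaks covered, 34.0% and 31.4%, and in the median distance between neighbouring midpoints, 3118 and 2955 bp. Small outer groups, chr4:190966921-190972200 with 2 peaks and chr4:191027956-191031358 with 3, had no peak of score 100 or more.

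Among the 5 highest-scoring peaks at 4q, 4 lay in these large groups. They were chr4:190840563-190843639 (score 628, 3077 bp), chr4:190626035-190629642 (score 491, 3608 bp), chr4:190879052-190882146 (score 461, 3095 bp) and chr4:190538847-190542152 (score 421, 3306 bp). Each of these 4 had another peak at most 0.287 kb away. Scores rise with width in this list, so each peak was ranked among the peaks of the list within 20% of its width. The peak of score 628 ranked 67 of 252, and the innermost peak, of score 3100, lay above 245 of 252 and tied with 4 others at 3100, where the median was 409.

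Of the 102 peaks at 4q, 99 formed 1 run that spanned 554 kb. It ranked 3 of 82 runs in the list by number of peaks and 6 by span. Its highest score, 628, ranked 57, and the share of its span covered by peaks, 21.5%, ranked 56. The 79 runs of the list that held none of the end peaks had a median highest score of 2313 and a median coverage of 32.7%. Of the 2435 peaks in these 79 runs, 1585 lay on the 19 chromosomes. The others lay on the left-out chromosomes, where distance from the ends was not measured. No peak at 4q was without a neighbour within 100 kb.

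At 4p the peaks crowded against the end of the chromosome. Of its 16 peaks, 14 formed a run at chr4:28667-68582. The run spanned 39.9 kb, and peaks covered 66.4% of it, the tenth highest share of the 82 runs. Of the 14, 9 scored 100 or more (64.3%), against 39.7% in the list and 56.4% in the runs that held none of the end peaks. Scores were low at both edges of the run, 56.2 in the outermost peak (chr4:28667-29405) and 53.6 in the innermost, chr4:68047-68582. The highest was 748, in the 5879 bp peak chr4:55091-60969. The next highest were chr4:63625-67248 with 415 and chr4:50374-53018 with 369. For their width these scores were not high. The peak of score 748 ranked 75 of 94 peaks of like width, whose median was 1105, the one of 415 ranked 145 of 193 and the one of 369 ranked 137 of 287. ZNF595, ZNF718 and ZNF732, members of the large family of zinc finger genes, are the outermost named protein-coding genes of 4p in GRCh38. The other 2 peaks at 4p were single ones further in, with scores of 59.3 and 337.

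The 21 peaks of 1p lay in separate places between 566 and 2629 kb from the end. A pair at chr1:564795-566285 and chr1:566765-568868 scored 136 and 208. This part of hg19 is known to carry a copy of mitochondrial DNA in the nuclear genome. The highest score of this end, 1340, was held by the 3300 bp peak chr1:723805-727104. A close set of 4 peaks followed between 814806 and 825476, with scores from 71.7 to 199. The run at 1p, chr1:2583387-2629848, held 12 peaks in 46.5 kb. Its first peak, chr1:2583387-2587707, scored 798 and 8 of the 12 scored under 100. The share at 100 or more was 33.3% in this run and 39.7% in the list.

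**Figure D3:**
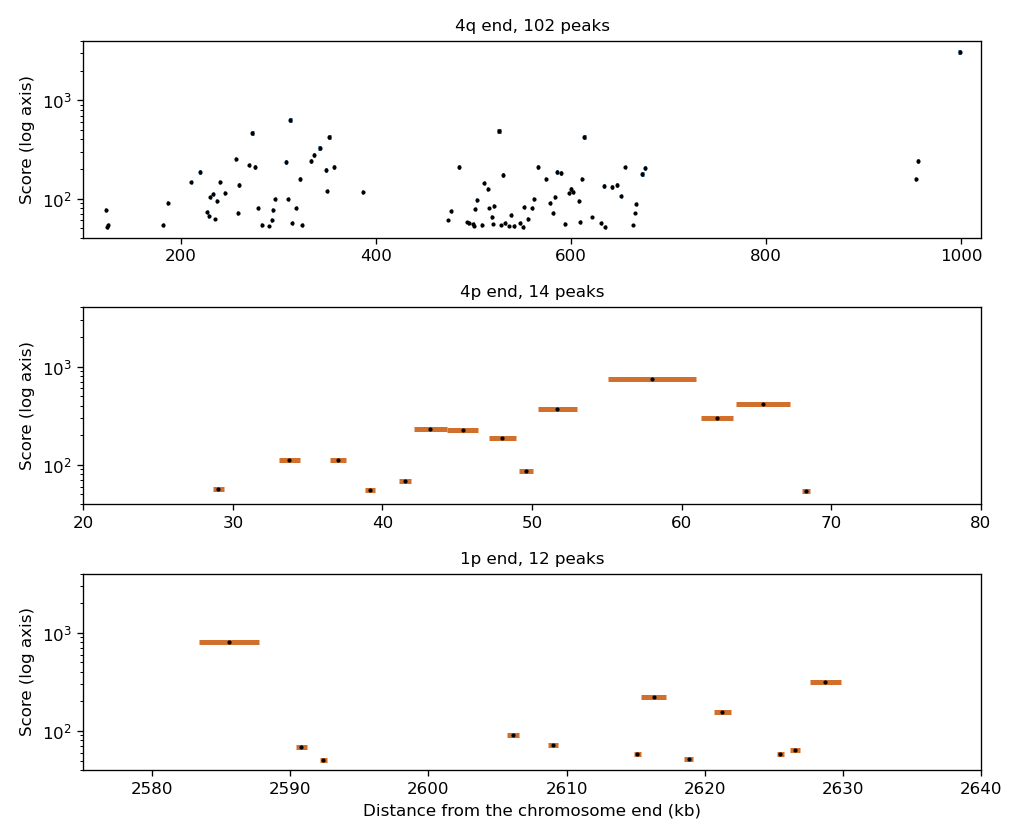
Deposited score (vertical log axis) against distance from the chromosome end in kb (horizontal axis) for the 102 peaks at 4q and for the runs of 14 peaks at 4p and 12 at 1p. Each bar is drawn to the width of its peak and each dot marks its midpoint; 4q shows the large groups of 57 and 36 peaks apart from the lone peak of score 3100, and 4p shows its widest peaks towards the inner side of the run.

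The 17q end differed from the other full ends. Its 13 peaks were spread over 106 to 2920 kb, formed no run and had a median score of 60.2. Only 2 of them scored 100 or more (15.4%, against 39.7% in the list), chr17:78717354-78718683 with 189 and chr17:80543968-80544674 with 125. The inner band of this arm held 12 peaks, almost as many as the window. The outermost peak was chr17:81088505-81089250 with a score of 96.8. The 8 peaks of 1q were weaker still, from 50.2 to 66.3, and were spread over the whole window from 79.6 to 2921 kb. The highest was chr1:247747541-247748391, and the outermost, chr1:249171134-249171727, scored 61.9.

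A few ends held a strong peak among few others. At 18p the 6099 bp peak chr18:105708-111806, 109 kb from the end, scored 3100. It lay above 73 of 90 peaks of like width, whose median was 1205, and tied with 16 others at 3100. A 566 bp neighbour, chr18:111924-112489, scored 79.4, and no other peak lay in that window. At 10q the 3536 bp peak chr10:135498961-135502496 also scored 3100, at 34.3 kb from the end. It lay above 184 of 193 peaks of like width and tied with 6 others at 3100. It was the outermost of 6 peaks, and the next 3 going inward, between 64.4 and 78.0 kb from the end, scored only 50.9, 54.6 and 69.9. The ends of 10q and 4q are known to carry near-identical repeat arrays. FRG2B, a relative of FRG2, is the outermost named protein-coding gene of 10q in GRCh38.

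Together with the peak on 1p and the one on 4q, these were the only end peaks with a score of 1000 or more. They made 4 of 218 (1.83%, exact 95% interval 0.50 to 4.63%), against 5.59% of all peaks in the list. The value of 3100, at which 100 peaks of the list tie, was reached by 3 end peaks.

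Several single peaks scored high for their width. On 3q, the 963 bp peak chr3:196625282-196626244 scored 666 and ranked 3 of 993 peaks of like width, whose median was 86.7. Its nearest neighbour was 486 kb away. The outermost peak of 3q, chr3:197894993-197896336, scored 413 and ranked 16 of 595, and the 4 others there scored from 55.0 to 150. On 12q, both peaks of the window stood high: chr12:132482906-132483703 scored 366 and ranked 7 of 1441, and chr12:132072832-132073604 scored 202 and ranked 12 of 1580. The lone peak of 16q, chr16:90182982-90184488, scored 278 with no other peak within 4176 kb. On 22q the outermost peak, chr22:51081744-51082627, scored 219 and ranked 20 of 1163. On 18q, the outermost peak, chr18:77379332-77379970, scored 51.4, and the innermost, chr18:76196848-76198436, scored 266 and ranked 59 of 470. Those between scored 220, 150 and 86.7 going inward, so scores did not rise steadily. Most of these peaks were picked for their scores, which favours high ranks.

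**Figure D4:**
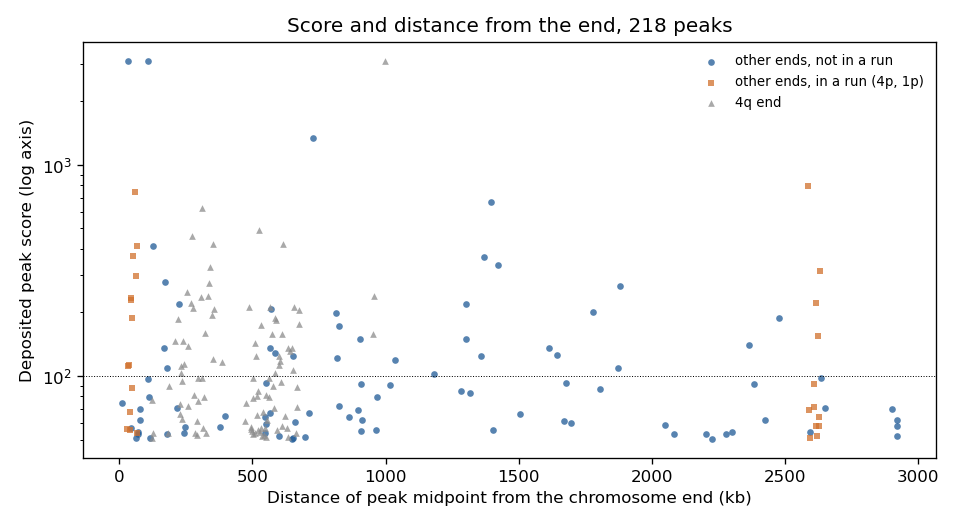
Deposited score (vertical log axis) against distance of the midpoint from the chromosome end in kb (horizontal axis) for all 218 peaks, with 4q and the runs at 4p and 1p marked; the dotted line is a score of 100. The 3 peaks at 3100 lie at 34.3, 109 and 999 kb, and the peaks of 4q lie in separate groups between 123 and 999 kb.

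At a score of 100, runs included, the share of end peaks did not stand apart from that of the list. The list had 39.7% of its peaks at a score of 100 or more. The other ends had 44 of 116 (37.9%, exact 95% interval 29.1 to 47.4%) and 4q had 47 of 102 (46.1%, 36.2 to 56.2%), and both intervals take in the value of the list. The median score was 76.7 (quartiles 57.7 and 142) at the other ends, 96.2 (61.3 and 159) at 4q and 79.1 in the list. The median width was 764 bp at the other ends, 987 bp at 4q and 838 bp in the list. Wider end peaks scored higher, with a Spearman correlation of 0.86 across the 218 peaks, given as a description since peaks of 1 library do not replicate each other. Short arms held 59 of the 116 and long arms 57. Per Mb the short arms had 1.33-fold the density of the long arms, with an interval (0.91 to 1.95) that takes in 1.

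Outside runs, a larger share of end peaks than of peaks elsewhere passed a score of 100, while the share at 1000 or more was not larger. Of the 90 such peaks at the other ends, 31 scored 100 or more (34.4%, exact 95% interval 24.7 to 45.2%). In the rest of the 19 chromosomes it was 141 of 809 (17.4%, 14.9 to 20.2%), and these intervals do not overlap. They cover counting error in 1 library only and treat peaks as independent, which neighbours are not. In the inner bands it was 9 of 37 (24.3%, 11.8 to 41.2%), an interval that overlaps that of the ends. A score of 1000 or more was reached by 3 of the 90 (3.33%, 0.69 to 9.43%) and by 37 of the 809 (4.57%, 3.24 to 6.25%). Median scores were 71.2 at the ends, 70.6 in the inner bands and 59.1 in the rest. The peaks at the ends were also wider, with a median of 737 bp against 671 bp in the rest. Among peaks over 900 and up to 1500 bp wide, 14 of 21 at the ends and 47 of 79 in the rest scored 100 or more. Among those over 700 and up to 900 bp, it was 5 of 23 and 13 of 201, among those over 600 and up to 700 bp 2 of 19 and 4 of 233, and among narrower ones 1 of 18 and 3 of 222. All 9 and 74 peaks over 1500 bp scored 100 or more, with a lower median at the ends (278) than in the rest (707). The part of width in the difference was not tested further.

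**Figure D5:**
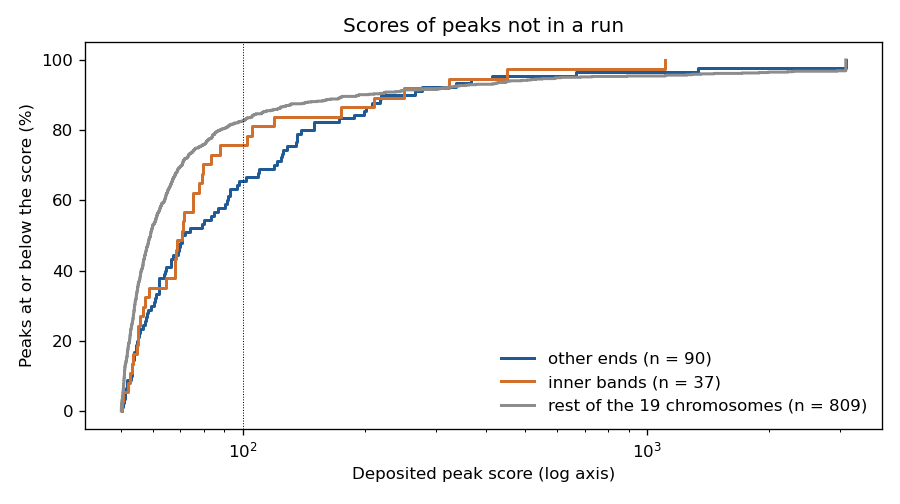
Cumulative share of peaks in percent (vertical axis) at or below each deposited score (horizontal log axis) for peaks outside runs at the 32 ends without 4q (90), in the inner bands (37) and in the rest of the 19 chromosomes (809, which include the inner bands); the dotted line is a score of 100. At that score the curve of the ends lies lowest, with 34.4% of peaks at 100 or more against 17.4% in the rest.

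Peaks with no other peak within 100 kb, which are part of those outside runs, gave a like difference in scores. At the other ends 50 of 116 peaks were isolated in this way (43.1%, exact 95% interval 33.9 to 52.6%). It was 468 of 2394 in the rest (19.5%, 17.98 to 21.2%) and 808 of 4201 in the list (19.2%). A peak in a run cannot be isolated, so these shares depend on the shares in runs. Of the peaks outside runs, 50 of 90 at the ends and 468 of 809 in the rest were isolated. Of the 50 isolated peaks at the ends, 16 scored 100 or more (32.0%, 19.5 to 46.7%). Of the 468 in the rest, 42 did (8.97%, 6.54 to 11.9%), and of the 808 in the list, 75 did (9.28%). The isolated peaks at the ends with the highest scores were those named on 3q (666), 12q (366), 16q (278) and 22q (219), and chr4:1421049-1423255 on 4p with a score of 337.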

How the data were processed

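The authors deposited 1 peak list, of the SOX4 library, with a chromosome, start, end, name and score per peak. Per the submitters' processing notes, Bowtie 0.12.7, MACS and hg19 were used. The MACS settings, the handling of reads that match several places and the use of the GFP library are not stated in the labels or the file. The deposited score has no stated scale and served only to rank, filter and describe peaks within this list. Positions are counted from 1. Chromosome lengths to the nearest kb set the distances. Shares have exact Clopper-Pearson 95% intervals, and intervals of density ratios derive from them. Neighbouring peaks with gaps of up to 100 kb were linked, and 10 or more made a run. The code was tested on simulated data with planted end peaks. Peaks were named by a rule: the 10 highest scores at the ends other than 4q, the 5 highest at 4q, those of 1000 or more, and the highest and outermost peak of every end with at least 5. Others named were chosen after their values were seen. The members and settings were chosen with earlier results of these data known. No sequence is shown, since no hg19 sequence was used. The work used SciPy 1.17.1 and pandas 2.3.3 under Python 3.11.15, with NumPy 2.4.6, and matplotlib 3.10.9 for figures.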

Additional observations from a re-analysis of the deposited data

How the results depend on the processing

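No paired analysis was possible because each condition had 1 library. Leaving out ends, and all alternatives for density ratios outside runs, were added after the data were seen. The density of the ends stayed above that of the inner bands in every alternative run. Against the rest of the chromosomes, runs included, the fold of 1.21 reversed to 0.86 (interval 0.72 to 1.02) with windows of 5 Mb. It was 2.06 with windows of 1 Mb, 2.21 with 4q included and 2.08 with peaks at most 5 kb apart joined. The number of peaks at the other ends was 65 in windows of 1 Mb, 58 at or above the median score, 44 at a score of 100 or more, 218 with 4q and 66 without 4p, 1p and 17q. The fold over the inner bands, 3.14, was 4.89 at a score of 100 or more and 5.59 with 4q. Outside runs that fold, 2.43, was 3.69 at or above the median score and 4.89 at a score of 100 or more. The fold over the rest outside runs, 2.79, was 4.66 and 2.12 with windows of 1 and 5 Mb, and 4.12 and 4.31 under the same score limits. Under these limits runs were formed anew from the peaks left, so peaks of the first runs could count as outside runs. At a score of 100 no end peak was then in a run, so 4.89 is the value with runs included. With runs as first formed, 31 peaks at the ends and 9 in the inner bands scored 100 or more outside runs. The share of peaks in runs at the other ends, 22.4%, was 57.3% with 4q and 12% without 4p. It was 0% without 4p, 1p and 17q, which was fixed in advance because the only runs at the other ends were those at 4p and 1p. It was also 0% at a score of 100 or more (0 of 44) and with peaks joined (0 of 85). Fewer peaks to chain bring these last 2 about. At 4q, 62 peaks were at or above the median score, 47 scored 100 or more, and 22 were left after joining. The cause of the other shifts was not tested. Without the read depth of the library, an end with no peak cannot be given an upper limit.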

Other observations

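Some peaks share both their width and their score exactly with another peak of the list. Of the 218 end peaks 81 did (37.2%, exact 95% interval 30.7 to 43.9%), against 1642 of 3983 elsewhere (41.2%, 39.7 to 42.8%). With a score of 100 or more it was 1 of 91 end peaks (1.10%, 0.028 to 5.97%), against 71 of 1578 elsewhere (4.50%, 3.53 to 5.64%). Equal values were thus found mostly among weak peaks, at the ends and elsewhere, and the intervals of the ends overlap those of the rest.

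At 10q, the 3 weak peaks inward of the peak of score 3100 had midpoints 6537 and 7087 bp apart. They were singled out after their values were seen.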
